A study of Mus musculus with 12 samples.

Results

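Kallikrein-related peptidases are secreted serine proteases whose genes lie side by side on mouse chromosome 7, and 7 of them, Klk6, Klk8, Klk9, Klk10, Klk11, Klk13 and Klk14, are described here out of 54347 genes in the deposited count table. They were picked by name from the cluster because Klk10 and Klk14 had been seen among the large falls with TGFB2, so the contrast of TGFB2 with untreated cells is a description for these genes and carries no test. The data are RNA sequencing of oligo(dT)-enriched RNA from PYMT cells, a mouse line named for the polyoma middle T mammary tumour model, grown in 3D matrigel. There were 4 groups of 3 libraries: BMP4-TGFB2 (both ligands together), TGFB2 alone, BMP4 alone, and NT (no treatment). Ligands were given at 5 ng/mL for 3 days, the medium was then replaced, and cells were taken 2 days later; all groups share the line, the matrix and this schedule. The study is about gene programs of tumour cell dormancy under these ligands. Replicates are called biological in the labels with no further detail, and a p-value therefore reflects only how much these cultures of a single line varied.

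Kallikrein-related peptidases are made as inactive precursors that are cut to become active, often by one another, and inhibitors such as the product of Spink5 hold them in check. They are best known in skin, where several of them cut the proteins that tie the outermost cells together, and some also cut the receptor PAR2 on the cell surface. In human breast, KLK10 (also called NES1) is known as a gene of normal epithelium that is often silent in tumour cells. Of the ligands used, TGFB2 signals through SMAD2 and SMAD3, and BMP4 through SMAD1 and SMAD5.

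Positions are from GENCODE M21 on GRCm38, all on chromosome 7 and the plus strand. In that order, Klk14 (ENSMUSG00000044737.6) runs from 43690418 to 43695536, Klk13 (ENSMUSG00000054046.7) from 43712567 to 43727534 and Klk11 (ENSMUSG00000067616.11) from 43774604 to 43779263. Klk10 (ENSMUSG00000030693.10) follows from 43781035 to 43785410, Klk9 (ENSMUSG00000047884.6) from 43791891 to 43796757, Klk8 (ENSMUSG00000064023.4) from 43797577 to 43803826 and Klk6 (ENSMUSG00000050063.18) from 43824499 to 43832030. They span 141.6 kb of a cluster of 37 genes named Klk that takes up 539.2 kb. Gaps between neighbouring members run from 0.82 kb between Klk9 and Klk8 to 47.1 kb between Klk13 and Klk11, and only 1.77 kb separates Klk11 from Klk10.

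The stretch just before the annotated start is shown for the 4 members with the highest levels, so that the regulatory stretches of neighbours that differ in how far they fell can be read side by side. Sequences are from RefSeq on GRCm38.p6, plus strand, 5′ to 3′, and end at the base before the gene's first annotated base, at chr7:43690168-43690417 for Klk14, chr7:43780804-43781034 for Klk10, chr7:43797327-43797576 for Klk8 and chr7:43824294-43824498 for Klk6. Capitals mark CAGAC, the short SMAD-binding motif, on either strand.
Klk14: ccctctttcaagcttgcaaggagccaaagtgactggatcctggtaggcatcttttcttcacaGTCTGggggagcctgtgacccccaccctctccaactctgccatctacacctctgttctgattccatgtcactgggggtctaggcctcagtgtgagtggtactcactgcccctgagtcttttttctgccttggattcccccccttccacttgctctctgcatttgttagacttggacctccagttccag
Klk10: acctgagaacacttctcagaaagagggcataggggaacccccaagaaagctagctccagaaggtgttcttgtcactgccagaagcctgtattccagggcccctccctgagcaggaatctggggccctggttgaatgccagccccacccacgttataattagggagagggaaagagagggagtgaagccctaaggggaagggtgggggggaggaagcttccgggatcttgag
Klk8: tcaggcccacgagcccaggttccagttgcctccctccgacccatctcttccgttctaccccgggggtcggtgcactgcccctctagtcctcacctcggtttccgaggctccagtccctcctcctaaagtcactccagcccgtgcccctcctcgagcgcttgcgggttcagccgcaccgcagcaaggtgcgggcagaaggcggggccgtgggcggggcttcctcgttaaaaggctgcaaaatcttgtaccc
Klk6: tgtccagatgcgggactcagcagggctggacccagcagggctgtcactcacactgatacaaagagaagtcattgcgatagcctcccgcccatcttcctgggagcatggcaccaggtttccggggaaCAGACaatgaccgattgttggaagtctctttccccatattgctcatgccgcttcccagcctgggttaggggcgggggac
The run of Klk8 is the richest in G and C of the 4, at 65.2%, against 53.6% for Klk14, 56.7% for Klk10 and 58.0% for Klk6. All 7 members matched the RefSeq promoter table, at 9 starts. On both strands of the 250 bases before each start 6 motifs were searched, and none of the 6 contains another. CAGAC was found at position -188 of Klk14, at -124 of the first start of Klk6 and at -5 of Klk10, the last outside the run printed. CAGAC occurs in 42.2% of 32851 promoter windows of the same length. CAGGTG, an E-box, was found in Klk13 and as 2 copies at the first start of Klk11, and it occurs in 17.2% of windows. GTCTAGAC (0.167% of windows), GGCGCC (9.59%), TGACTCA (4.46%) and AACCGGTT (0.116%) were not in the windows of any of the 7, and Klk8 and Klk9 held none of the 6 motifs. A match here is a description of letters and not of binding.

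The libraries held 28543100 to 42167800 counts each, and 15319 genes passed the filter on low counts. Of the 7 members, 5 passed it (Klk14, Klk10, Klk9, Klk8 and Klk6), while Klk11 and Klk13 did not. The epithelial markers Epcam, Cdh1, Krt8, Krt18 and Krt19 were all present, with summed levels of 3072 to 3946 TPM (transcript abundance scaled for length and depth) over all 12 libraries. The summed level of the mammary luminal markers (Elf5, Csn3, Csn2, Ltf, Krt8, Prlr; 5 of 6 passed the filter) was 1315 to 1523 TPM with both ligands, 1217 to 1506 TPM with TGFB2, 2414 to 3294 TPM with BMP4 and 7537 to 13350 TPM in NT. The basal list (4 of 5 passed), nearly all of it Krt14 with Krt5 under 1 TPM in each library, summed to 425 to 990 TPM with both ligands, 356 to 582 TPM with TGFB2, 941 to 1325 TPM with BMP4 and 183 to 409 TPM in NT. The luminal sum was mostly Krt8 in the groups with TGFB2 and mostly Ltf in NT. Krt8 averaged 1283 TPM with both ligands, 1209 TPM with TGFB2, 1142 TPM with BMP4 and 1098 TPM in NT, while Ltf averaged 92.2 TPM with both ligands, 86.4 TPM with TGFB2, 1681 TPM with BMP4 and 8727 TPM in NT. Fibroblast, leukocyte and endothelial lists summed to at most 15.6 TPM in any library. The skin keratinocyte list (Krt1, Krt10, Lor, Ivl; 3 of 4 passed) summed to 9.42 to 12.04 TPM with both ligands, 5.28 to 10.3 TPM with TGFB2, 5.87 to 9.02 TPM with BMP4 and 3.39 to 3.79 TPM in NT, with Krt1 at 0 in the TGFB2, BMP4 and NT groups. The part of these markers in the kallikrein results was not tested, and in bulk RNA fewer cells of a type and less RNA per cell cannot be told apart.

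Klk10 encodes a kallikrein known in human as a protein with little protease activity of its own. It had 10.5, 16.1 and 17.9 TPM with both ligands and 9.79, 19.2 and 18.0 TPM with TGFB2. BMP4 libraries held 269, 365 and 309 TPM, and NT libraries 273, 1241 and 1281 TPM. Every library with TGFB2 lay far below every library without it. Over all genes tested, every library was lower, by any margin, for 19.2% in TGFB2 against NT and for 20.5% in both ligands against NT. The share for all libraries with TGFB2 against all without it was not computed. The first NT library lay at the level of the BMP4 group while the other two NT libraries were well above it.

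Klk14 encodes a trypsin-like enzyme known in human skin to cut PAR2. It had 1.82, 2.63 and 2.28 TPM with both ligands and 1.46, 3.68 and 1.68 TPM with TGFB2. BMP4 libraries held 144, 89.7 and 42.6 TPM, and NT libraries 141, 158 and 181 TPM. The groups with TGFB2 overlapped each other and lay far below the rest, and the first BMP4 library reached into the NT range.

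Klk8, or neuropsin, is an enzyme of skin and of the hippocampus, where it is known for a part in synaptic plasticity. Its levels were 40.4, 22.5 and 16.2 TPM with both ligands and 36.9, 22.8 and 15.6 TPM with TGFB2. BMP4 libraries held 148, 130.4 and 90.3 TPM, and NT libraries 45.6, 53.4 and 68.5 TPM. Here the BMP4 libraries were the highest of all 12, and the NT libraries lay between them and the libraries with TGFB2 with no overlap.

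Klk6, known as neurosin and abundant in the central nervous system, had 8.73, 7.70 and 3.85 TPM with both ligands and 9.18, 6.23 and 4.68 TPM with TGFB2. BMP4 libraries held 29.7, 69.5 and 30.9 TPM, and NT libraries 18.5, 42.1 and 52.0 TPM. The libraries with TGFB2 were all below those without it, and the BMP4 and NT groups overlapped.

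The remaining 3 members were near the lower limit of detection. Klk9, a little-studied member, had 3, 4 and 1 counts with both ligands, 4, 3 and 5 with TGFB2, 33, 24 and 13 with BMP4 and 24, 17 and 13 in NT. Klk13, a trypsin-like enzyme in human, had no count with both ligands, 0, 0 and 1 with TGFB2, 0, 2 and 1 with BMP4 and 1, 13 and 35 in NT. Klk11, also trypsin-like in human, had no count with both ligands or with TGFB2, 14, 0 and 0 with BMP4 and 4, 10 and 12 in NT. Klk9 passed the filter only through the libraries without TGFB2, and the BMP4 value of Klk11 came from a single library.

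**Figure D1:**
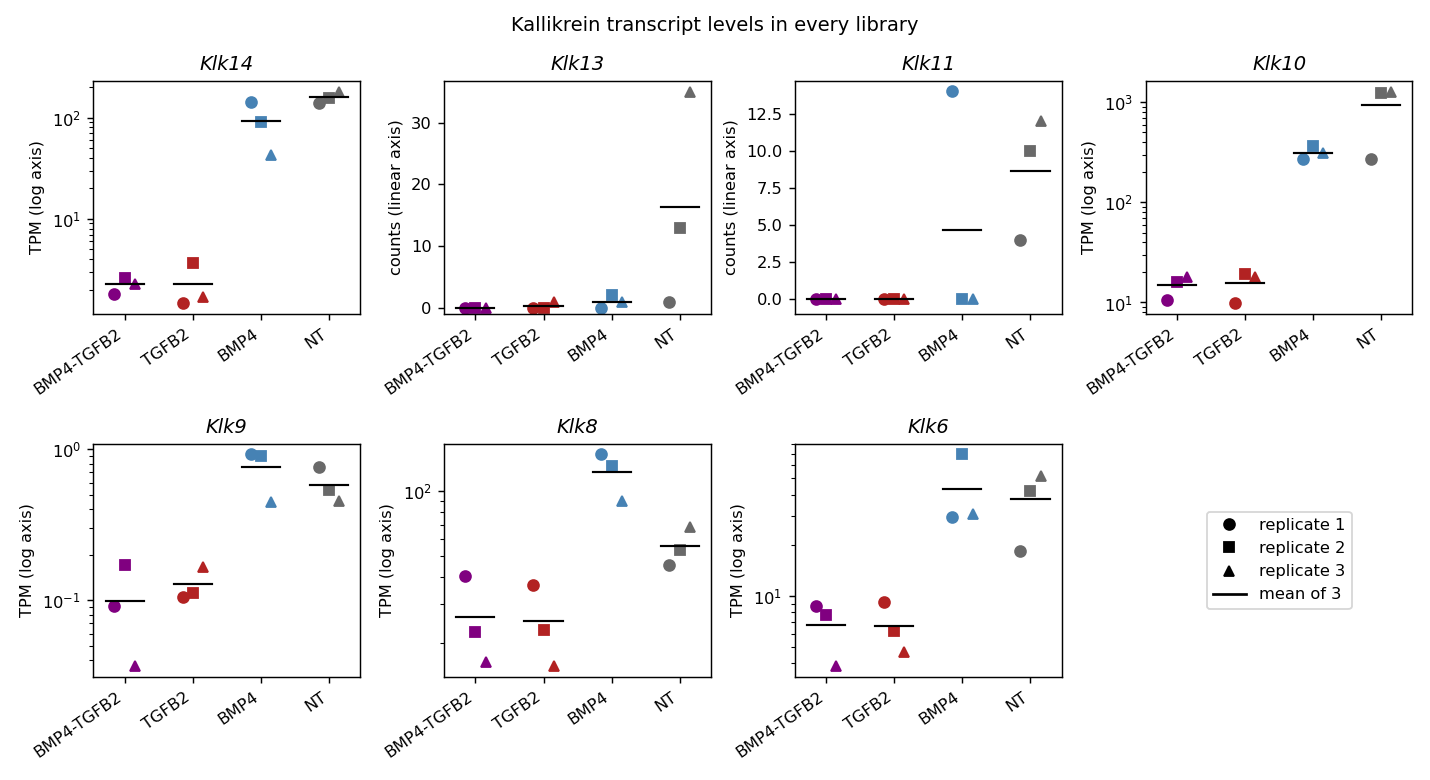
Level of each of the 7 genes in the 12 libraries, in TPM on a log axis, or in counts on a linear axis for Klk13 and Klk11; marker shapes give the replicate number and bars the mean of 3 libraries. The libraries with TGFB2 sit lowest for Klk14, Klk10, Klk9, Klk8 and Klk6, and Klk8 is highest with BMP4.

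The main tested comparison was BMP4-TGFB2 with BMP4 alone, which asks what TGFB2 does to cells that also had BMP4. Its 6 libraries are not those of TGFB2 against NT, the contrast behind the choice of these genes. Earlier results of these data were known, however, and the filter, scaling and spread came from all 12 libraries. It is therefore not an independent check. All 5 members that passed the filter fell, 5 of 7, where 4.98% of all genes tested fell. Every BMP4-TGFB2 library was below every BMP4 library for all 5, as for 14.4% of genes tested. Klk9 could pass the filter only where it was high, so its fall adds nothing to that count. With the replicate number as a block, which pairs these libraries, the same 5 fell, while 3476 genes in all changed in place of 1412.

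Klk14 averaged 2.24 ± 0.404 TPM with both ligands and 92.0 ± 50.6 TPM with BMP4 (SD, n = 3 each), a log2 fold change of -5.39 ± 0.48 (SE; edgeR adjusted p = 0.000232), or 42.0-fold lower. Klk10 averaged 14.8 ± 3.87 TPM with both ligands and 314 ± 48.1 TPM with BMP4, a log2 fold change of -4.43 ± 0.53 (edgeR adjusted p = 0.000785), or 21.5-fold lower. These were the 40th and 68th lowest fold changes of the 15319 genes. Klk6, Klk8 and Klk9 changed less. The log2 fold change of Klk6 was -2.82 ± 0.46 (edgeR adjusted p = 0.00352), with means of 6.76 ± 2.58 TPM with both ligands and 43.3 ± 22.6 TPM with BMP4. Klk8 averaged 26.4 ± 12.6 TPM with both ligands and 123 ± 29.5 TPM with BMP4, a log2 fold change of -2.16 ± 0.34 (edgeR adjusted p = 0.0029). Klk9 had a log2 fold change of -2.94 ± 0.61 (edgeR adjusted p = 0.0115). Its call was lost without BMP4-TGFB2 replicate 1 (adjusted p = 0.0561), BMP4-TGFB2 replicate 3 (0.0575), BMP4 replicate 2 (0.0506) or all replicate 1 libraries (0.105), while the other 4 kept theirs when any single library was left out. For Klk11 and Klk13 no fold is given here, since both groups were at or near 0 or the counts came from a single library.

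In TGFB2 against NT, which gave the choice of these genes, 11.1% of all genes tested fell, and nothing is read from the members beside it. The log2 fold changes were -6.14 ± 0.49 for Klk14, -5.92 ± 0.57 for Klk10, -2.39 ± 0.45 for Klk6, -2.15 ± 0.58 for Klk9 and -1.05 ± 0.33 for Klk8. As group means, Klk10 had 15.7 ± 5.14 TPM with TGFB2 and 932 ± 571 TPM in NT, and Klk14 had 2.27 ± 1.22 TPM with TGFB2 and 160 ± 20.0 TPM in NT. The untested pair can only be bounded. Summed over 3 libraries, Klk11 had 0 counts with TGFB2 and 26 in NT, at least 8.88-fold lower against a floor of 3 counts over the group. Klk13 had 1 count with TGFB2 and 49 in NT, 50.2-fold lower with a 95% interval of 8.60 to 2023 that covers counting error only. Of the 49 counts of Klk13 in NT, 35 were in a single library.

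In BMP4-TGFB2 against NT, the NT libraries are those behind the choice of these genes, so the values are a description. By edgeR 5 of 7 members fell, Klk9 among them, where 12.9% of genes tested fell, and nothing is read from that count. Log2 fold changes were -6.14 for Klk14, -5.97 for Klk10, -2.66 for Klk6, -2.51 for Klk9 and -1.09 for Klk8. The call of Klk8 was lost without BMP4-TGFB2 replicate 2 (adjusted p = 0.0922), BMP4-TGFB2 replicate 3 (0.0928), NT replicate 2 (0.0796) or NT replicate 3 (0.103), and that of Klk9 without the replicate 1 libraries (0.0859). In both ligands against TGFB2 alone no member changed, and 0.0% of genes tested changed by edgeR, with 516 genes at an unadjusted p under 0.05 and 44 called by DESeq2. The log2 differences of the 5 members lay between -0.36 ± 0.64 for Klk9 and 0.01 ± 0.45 for Klk14. Those of Klk6, Klk10 and Klk8 were -0.27 ± 0.44, -0.06 ± 0.47 and -0.04 ± 0.33. With these errors a small or moderate effect of added BMP4, in either direction, may have gone undetected.

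**Figure D2:**
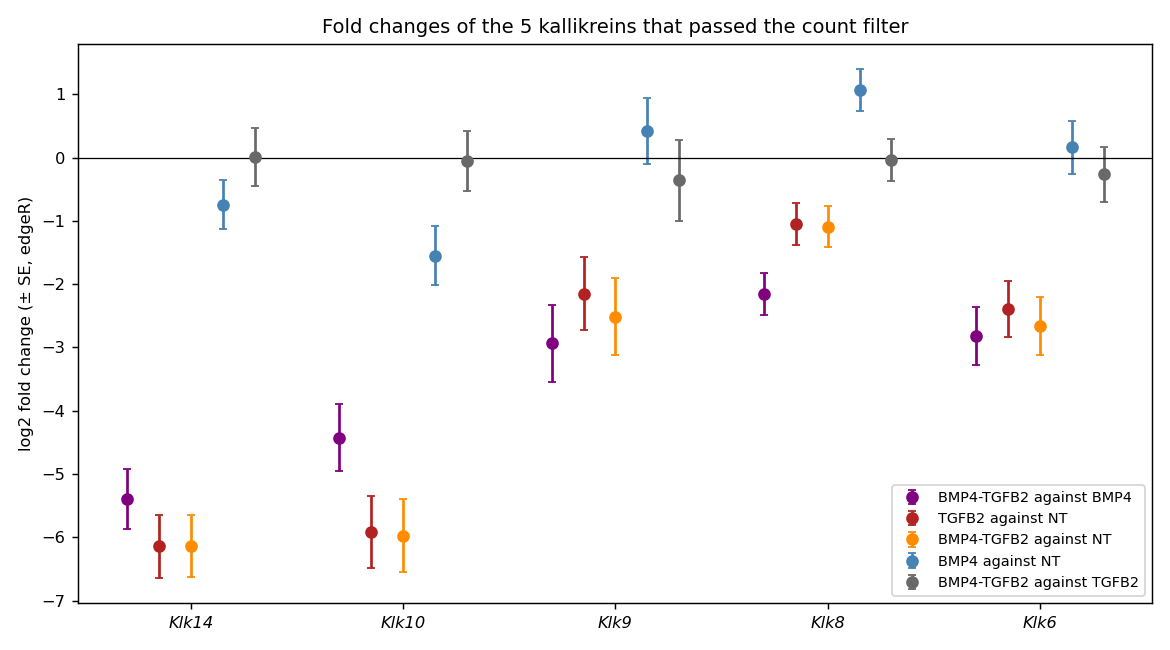
Log2 fold changes (points, with SE) from edgeR for the 5 genes that passed the filter on counts, in 5 comparisons named in the legend. Klk14 and Klk10 lie between -4.43 and -6.14 in the 3 comparisons of libraries with and without TGFB2, Klk8 lies at 1.07 in BMP4 against NT, and the values of BMP4-TGFB2 against TGFB2 lie near 0.

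BMP4 alone moved no member past the threshold in the reported fit, though Klk10 and Klk8 passed in some other fits. BMP4 against NT again uses the NT libraries behind the choice of these genes, so the values of the members are a description. In it 0 of 7 members passed the threshold by edgeR, where 5.44% of genes tested changed. At an unadjusted p under 0.05 there were 2, Klk10 and Klk8, and they moved in opposite directions. Klk10 averaged 314 ± 48.1 TPM with BMP4 and 932 ± 571 TPM in NT, a log2 fold change of -1.55 ± 0.47 (edgeR adjusted p = 0.0860), and the groups overlapped through the first NT library. Without NT replicate 1, the lowest NT library for Klk10, the log2 fold change was -1.98, and the edgeR adjusted p was 0.00388. Only the higher NT libraries remain in that fit, so nothing is read from that call. Klk8 averaged 123 ± 29.5 TPM with BMP4 and 55.9 ± 11.6 TPM in NT, a log2 fold change of 1.07 ± 0.33 (edgeR adjusted p = 0.0875), with every BMP4 library above every NT library, as for 11.7% of genes tested. Libraries with the same replicate number deviated together in this comparison. With the replicate number as a block both passed, Klk10 at -1.32 (edgeR adjusted p = 0.0264) and Klk8 at 1.01 (0.0357). Both also passed by DESeq2 (adjusted p = 0.00791 for Klk10 and 0.0205 for Klk8). With no filter on low counts the edgeR adjusted p was 0.00134 for Klk10 and 0.0121 for Klk8. Klk14 (-0.74 ± 0.38, edgeR adjusted p = 0.335), Klk9 (0.43 ± 0.52, 0.747) and Klk6 (0.16 ± 0.42, 0.905) did not pass in any of these fits.

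Whether the TGFB2 effect differed with BMP4 present was read as the interaction on the log2 scale. It contains TGFB2 against NT, the contrast behind the choice of these genes, so the values of the members are a description. No member passed, where 0.157% of genes tested did. The interaction of Klk10 was 1.49 ± 0.66 (edgeR adjusted p = 0.579) and that of Klk8 -1.11 ± 0.46 (0.531). Klk14, Klk9 and Klk6 gave 0.75, -0.79 and -0.43, with edgeR adjusted p of 0.841 to 0.934. Leaving out the replicate 1 libraries of all groups, Klk10 passed at 1.81 (edgeR adjusted p = 0.0387), and nothing is read from that call.

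TPM is scaled for length, so the members can also be set against each other. Their summed level was 50.3 ± 10.7 TPM with both ligands, 49.9 ± 8.85 TPM with TGFB2, 573 ± 92.2 TPM with BMP4 and 1187 ± 614 TPM in NT (SD, n = 3 each). Klk10 made up 17.0% to 44.4% of that sum with both ligands, 17.0% to 44.8% with TGFB2, 45.5% to 65.3% with BMP4 and 57.1% to 83.0% in NT. Klk8 ran the other way, at 40.3% to 65.7% with both ligands, 38.9% to 64.3% with TGFB2, 19.1% to 24.99% with BMP4 and 3.57% to 9.52% in NT. For Klk14 the share was 2.97% to 5.67% with both ligands, 2.54% to 7.06% with TGFB2, 8.99% to 24.3% with BMP4 and 10.5% to 29.4% in NT. By mean level, the order in both groups with TGFB2 was Klk8, Klk10, Klk6, Klk14 and Klk9, in which only the libraries of Klk8 and Klk10 overlapped. With BMP4 it was Klk10, Klk8, Klk14 and Klk6, with Klk14 overlapping both of its neighbours. In NT it was Klk10, Klk14, Klk8 and Klk6, where Klk8 and Klk6 overlapped. Within a sample these shares add up to 100%, so a lower share of one gene raises the others.

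**Figure D3:**
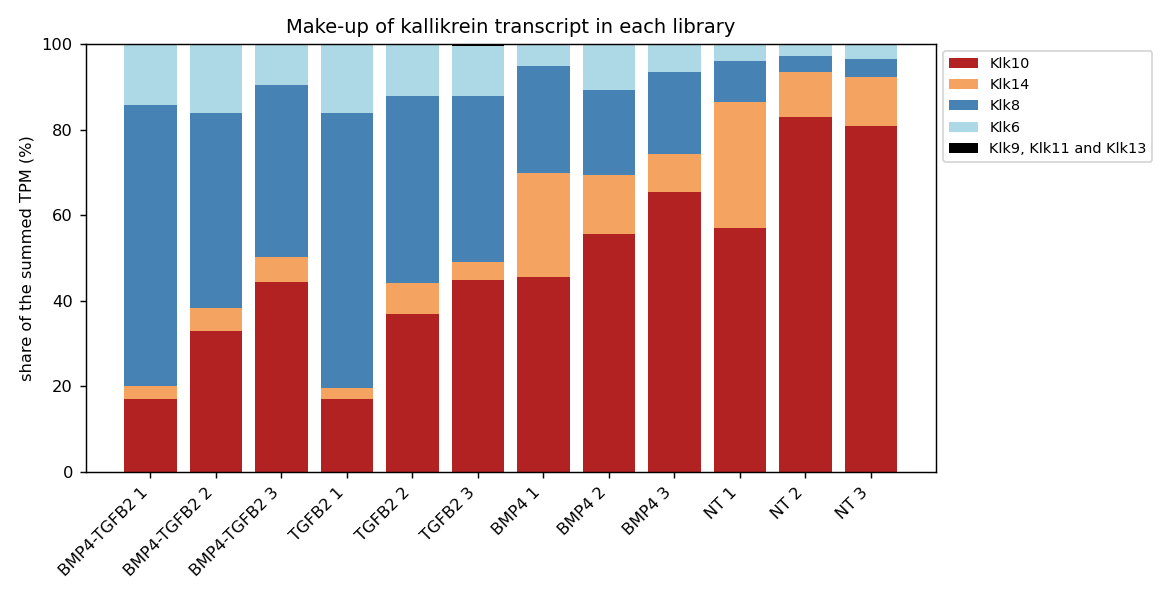
Share of each gene in the summed TPM of the 7 kallikreins, in percent, for the 12 libraries by group and replicate number; colours give the gene. Klk8 takes 38.9% to 65.7% of the sum in the 6 libraries with TGFB2 and 3.57% to 9.52% in NT, where Klk10 takes 57.1% to 83.0%.

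How alike the profiles of the members were is given as a description. It uses all 12 libraries, so the TGFB2 and NT values behind the choice of Klk10 and Klk14 enter it, and Klk9 passed the filter only through libraries where it is high. The root mean square difference between log2 CPM, the depth-scaled count, each gene centred on its own mean over 12 libraries, was 0.745 between Klk10 and Klk14. It was 0.617 between Klk6 and Klk8, 0.707 between Klk9 and Klk6 and 0.723 between Klk9 and Klk8. The other pairs gave 1.48 to 2.22. No median over all genes was computed for Klk6, Klk8 or Klk9. Genes that change less lie closer on this measure, so their distances alone do not mark shared behaviour. On the chromosome, Klk13, Klk12 and Klk11 lie between Klk14 and Klk10, and Klk7 lies between Klk8 and Klk6. Among all genes tested, members and predicted names left out, those nearest to Klk10 were the glutamate transporter Slc1a1 (0.739), the chemokine Cxcl3 (0.845), the sialyltransferase St8sia6 (0.923), lactoferrin Ltf (0.926) and Gas7 (0.932), against a median of 2.65 over all genes. Nearest to Klk14 were the receptor for vasoactive intestinal peptide Vipr1 (0.423), Ltf (0.734), Slc1a1 (0.835), Fcamr (0.863) and Pip (0.907), against a median of 2.93. Nearest to the mean profile of the 5 members were the proton pump subunit Atp6v1c2 (0.413), the deiodinase Dio2 (0.427), Lmo7 (0.441), the tight junction gene Cldn1 (0.441) and Sema3b (0.462), against a median of 1.80. Ltf, near both Klk10 and Klk14, is 1 of the 6 luminal markers and makes up most of their sum in NT, so that sum is not separate from it. Of the other luminal markers, Elf5, Csn3 and Prlr averaged 9.12, 2.07 and 2.56 TPM with both ligands and 245, 303 and 29.1 TPM in NT. Krt8 was not lower with both ligands than in NT, and Csn2 was near 0 in all groups.

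Of the 30 other genes named Klk in the cluster, 27 did not pass the filter, and none of these had more than 30 counts over the 12 libraries. They include Klk5 and Klk7, the enzymes best known for shedding of the outer skin in human. Klk7 had no count with both ligands, 2, 0 and 1 with TGFB2, 6, 2 and 3 with BMP4 and 2, 6 and 8 in NT, and Klk5 had 6 counts in 1 BMP4 library and 0 elsewhere.

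The 3 that passed, Klk1b26, Klk1b11 and Klk1b1, belong to a rodent-specific group of near-identical copies, so how their reads were divided is uncertain. They passed the filter only through NT, which fixes a lower level in the treatments, so their values are a description with no test. Klk1b26 had 4, 0 and 2 counts with both ligands, 3, 3 and 2 with TGFB2, 11, 6 and 2 with BMP4 and 709, 253 and 63 in NT. Even the lowest NT library was above every treated one. Over the group it was 152-fold lower with both ligands than in NT (95% counting interval 69.7 to 416), 131-fold lower with TGFB2 (66.4 to 305) and 51.7-fold lower with BMP4 (32.9 to 86.2). Of its 1025 NT counts, 709 were in the first library, and the counting intervals leave out such variation between libraries. Without NT replicate 1 the fitted log2 fold change was -6.11 with both ligands, -5.86 with TGFB2 and -4.61 with BMP4, in place of -7.14, -6.90 and -5.63. Klk1b11 had 1, 0 and 1 counts with both ligands, no count with TGFB2, 3, 5 and 0 with BMP4 and 255, 68 and 40 in NT. Klk1b1 had 1 count in the first TGFB2 library, no count in the other treated libraries and 111, 42 and 21 in NT.

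Genes beside the cluster were read from 500 kb on either side. In BMP4-TGFB2 against BMP4, of 9 tested genes before the cluster 1 rose and 0 fell, and of 10 after it 0 rose and 1 fell, where 4.24% of all genes rose and 4.98% fell. The riser was Iglon5, a neuronal cell adhesion gene, with 2.27 ± 0.809 CPM with both ligands and 0.188 ± 0.146 CPM with BMP4 (log2 fold change 3.57 ± 0.67, edgeR adjusted p = 0.00708). Iglon5 reached the filter only through libraries with TGFB2, where it is high, so its rise adds nothing to that count. Myh14, a non-muscle myosin heavy chain, was the gene that fell, with 255 ± 92.5 CPM with both ligands and 539 ± 77.7 CPM with BMP4 (-1.08 ± 0.26, edgeR adjusted p = 0.0266). That call was lost without BMP4-TGFB2 replicate 1 (adjusted p = 0.0755), BMP4-TGFB2 replicate 3 (0.0685), BMP4 replicate 1 (0.0754) or BMP4 replicate 2 (0.0975). Closest to Klk14 on the outside is Ctu1, a tRNA-modifying enzyme gene, at 16.7 ± 2.91 CPM with both ligands and 16.0 ± 2.39 CPM with BMP4 (log2 fold change 0.06 ± 0.18, edgeR adjusted p = 0.873).

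Within the cluster lies an antisense gene, 2310002F09Rik, on the minus strand. It covers 287 of 1271 exon bases of Klk14 (22.6%) and 382 of 1540 of Klk8 (24.8%). Since the libraries are unstranded per the file headers, reads of these genes in the shared bases cannot be told apart. The antisense gene had 3.31 ± 2.57 CPM with both ligands, 3.21 ± 2.25 CPM with TGFB2, 2.64 ± 0.983 CPM with BMP4 and 1.42 ± 0.381 CPM in NT. It did not pass in BMP4-TGFB2 against BMP4 (0.33 ± 0.58, edgeR adjusted p = 0.795) or in TGFB2 against NT (1.18 ± 0.59, 0.183). In the groups with TGFB2 fewer counts were given to Klk14, at 1.65 ± 0.216 CPM with both ligands and 1.66 ± 0.872 CPM with TGFB2, so the lowest levels of Klk14 are uncertain.

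**Figure D4:**
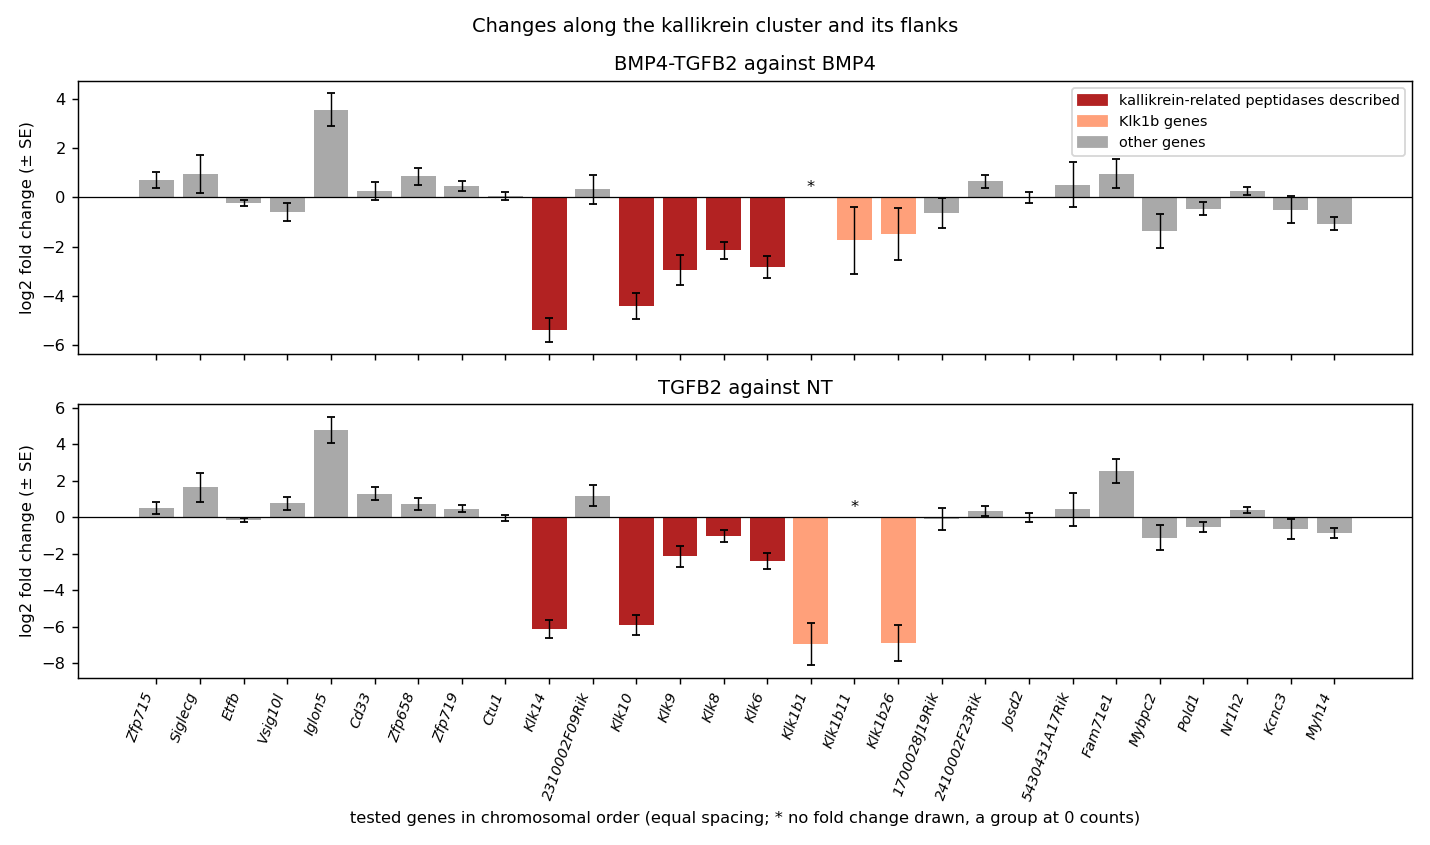
Log2 fold changes with SE from edgeR for every tested gene of the cluster and 500 kb on either side, in chromosomal order, for BMP4-TGFB2 against BMP4 (top) and TGFB2 against NT (bottom). Klk14, Klk10, Klk9, Klk8 and Klk6 all lie below 0 in both, from -6.14 to -1.05, while Ctu1, next to Klk14, lies at 0.06 in the upper panel; an asterisk marks a gene with a group at 0 counts, for which no bar is drawn.

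Genes that work with kallikreins were counted from 4 lists in BMP4-TGFB2 against BMP4, where the median log2 fold change of all genes was 0.0026. Of 18 inhibitors 7 were tested, and 0 rose and 0 fell by edgeR (median -0.36). Spink5, the classic inhibitor of skin kallikreins, had 0.183 ± 0.167 CPM with both ligands and 1.91 ± 1.18 CPM with BMP4, a log2 fold change of -3.35 ± 1.03 that missed the threshold (edgeR adjusted p = 0.0671). With the replicate number as a block it passed at -3.44 (edgeR adjusted p = 0.0326), and DESeq2 gave an adjusted p of 0.00264. Spink5 reached the filter only through libraries without TGFB2, so its fall is a description. Serpinb6a, an intracellular serpin, also passed only with the block, at 0.33 (edgeR adjusted p = 0.0457).

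Of 20 receptors and substrates 9 were tested, and 2 rose and 2 fell (median -0.20), where 4.24% of all genes tested rose and 4.98% fell. F2rl1, which encodes PAR2, had 14.5 ± 3.69 CPM with both ligands and 36.7 ± 6.05 CPM with BMP4, a log2 fold change of -1.34 ± 0.26 (edgeR adjusted p = 0.00874). It also fell with TGFB2 against NT, at -1.61 ± 0.26 (edgeR adjusted p = 0.00129). Cdsn, for corneodesmosin, a skin adhesion protein cut by kallikreins, fell by 2.72 on the log2 scale (edgeR adjusted p = 0.0198). Ephb2, a receptor tyrosine kinase that Klk8 cuts in mouse brain, rose by 4.28 (edgeR adjusted p = 0.0171). It had 6.19 ± 6.38 CPM with both ligands and 0.321 ± 0.272 CPM with BMP4, so the size of its rise is uncertain. Plau, the urokinase gene, rose by 1.54 (edgeR adjusted p = 0.0436). These last 3 calls were each lost when 1 library was left out, with adjusted p of up to 0.0728 for Cdsn without BMP4 replicate 1, 0.0766 for Ephb2 without BMP4 replicate 2 and 0.173 for Plau without BMP4 replicate 2. The other libraries whose removal ended a call were BMP4-TGFB2 replicates 2 and 3 and BMP4 replicate 2 for Cdsn, BMP4-TGFB2 replicate 3 and BMP4 replicate 1 for Ephb2, and all but BMP4 replicate 3 for Plau.

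Among 17 other epithelial trypsin-like proteases 13 were tested, and 1 rose and 3 fell (median -0.12), against the same 4.24% and 4.98%. Tmprss4, a membrane serine protease, had 2.07 ± 0.956 CPM with both ligands and 24.5 ± 9.83 CPM with BMP4 (-3.57 ± 0.49, edgeR adjusted p = 0.00143). Prss22 rose, with 75.0 ± 18.1 CPM with both ligands and 20.8 ± 5.36 CPM with BMP4 (1.85 ± 0.25, edgeR adjusted p = 0.00124). Tmprss11d fell by 2.63 (edgeR adjusted p = 0.00686), a call lost without the replicate 1 libraries (0.0685). Tmprss2 fell by 1.07 (edgeR adjusted p = 0.0275), a call lost without BMP4-TGFB2 replicate 2 (0.0834), BMP4-TGFB2 replicate 3 (0.0848), BMP4 replicate 1 (0.0986) or BMP4 replicate 2 (0.0752).

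Of 25 genes of cornified and stratified epithelium 11 were tested, and 0 rose and 5 fell (median -2.0), against 4.24% and 4.98% of all genes tested. The 5 include Cdsn, already counted above, and Tgm1, a transglutaminase, which fell by 2.04 on the log2 scale (edgeR adjusted p = 0.0218). The call of Tgm1 was lost without BMP4-TGFB2 replicate 1 (0.0667), BMP4-TGFB2 replicate 3 (0.0748) or BMP4 replicate 2 (0.0860). Sbsn, for suprabasin, had 1.92 ± 0.738 CPM with both ligands and 18.8 ± 5.78 CPM with BMP4 (-3.29 ± 0.34, edgeR adjusted p = 0.000374). Dmkn, for dermokine, had 0.228 ± 0.0424 CPM with both ligands and 3.05 ± 1.23 CPM with BMP4 (-3.71 ± 0.58, edgeR adjusted p = 0.00295). Cnfn, for cornifelin, had under 1 CPM in both groups on average and fell by 3.42 on the log2 scale (edgeR adjusted p = 0.0339), a call that was lost on leaving out any 1 of 5 of the 6 libraries compared, with adjusted p of 0.0741 to 0.119. Dmkn and Cnfn reached the filter only through libraries without TGFB2, so their falls add nothing to the count of 5 or to the median and are a description. In BMP4 against NT 2 of the list rose, Lor and Sprr1a, and 0 fell, where 3.19% of genes tested rose and 2.25% fell. The call of Lor was lost without BMP4 replicate 1, NT replicate 2 or NT replicate 3 (adjusted p of 0.0570 to 0.0758), and that of Sprr1a without any 1 of the 6 libraries compared (0.0519 to 0.121). In TGFB2 against NT 2 rose and 3 fell, where 11.3% rose and 11.1% fell. Dmkn and Cnfn were among those that fell, and the same limit holds for them there.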

How the data were processed

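RNA of 12 libraries, 4 groups of 3, was enriched with oligo(dT) beads, per the labels' protocols. The submitters' processing notes name bcl2fastq 2.17, STAR 2.7.5b, Salmon 1.2.1 and GRCm38.p6; no settings for them are stated here. The authors deposited estimated counts per gene, of which 82.9% were whole. They also deposited TPM and a normalized signal, in which each library's counts were divided by a factor of its own (0.844 to 1.24), and this signal was used only to check the counts. Per the file headers, the libraries are unstranded, passed a quality check and share 1 sequencing batch.

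Counts were rounded, which changed the total by 0.000361%. Genes passed filterByExpr at its minimum count of 10, and these 15319 genes held 99.9% of counts. The quasi-likelihood test of edgeR 4.0.16 (R 4.3.3, TMM factors 0.971 to 1.03) was fitted by group to all 12 libraries, with Benjamini-Hochberg adjustment over all genes tested and a threshold of 0.05. CPM are counts scaled to the TMM-adjusted library total. The fit was also run on simulated data with set changes, fewer than those called here and smaller than the falls of Klk14 and Klk10. Nothing is read from that run. An error after ± is the SE of a log2 fold change, or else the SD. No pair of libraries within a group agreed within sampling noise (chi-square over its degrees of freedom 18.9 or more). Folds of genes near 0 are ratios of summed counts with exact 95% intervals, or against a floor of 3 counts over the group. These intervals cover counting error only and not the variation between libraries.

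The members, gene lists and tests were chosen with earlier results of these data known. Named besides the members were, from each list, up to 3 genes with the smallest p in BMP4-TGFB2 against BMP4 and any that passed both there and in TGFB2 against NT, the tested neighbours within 500 kb, and the 5 genes with the most alike profile; of the neighbours only a few are described. Lor, Sprr1a, Tgm1, Klk5 and Klk7 were chosen after their values were seen. Libraries with the same number deviated together, with a correlation above 0.1 for all 3 pairs, in BMP4-TGFB2 against BMP4 (0.109 to 0.279), BMP4 against NT (0.125 to 0.385) and BMP4-TGFB2 against TGFB2 (0.155 to 0.401), so the numbers were taken to pair libraries there. Alternatives were RLE factors, no filter, DESeq2 1.42.0, a replicate block, only the groups compared, each library left out, all replicate 1 libraries left out, and limma 3.58.1 on log2(TPM + 1) or log2(TPM + 0.1) for genes with a mean of at least 0.5 TPM.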

Additional observations from a re-analysis of the deposited data

Results flagged for a closer look

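Prss23, a serine protease of the list of epithelial trypsin-like proteases, differed in its TGFB2 effect with BMP4 present; it was chosen for this after its values were seen. It had 163, 241 and 186 TPM with both ligands, 106, 182 and 144 TPM with TGFB2, 115, 144 and 112 TPM with BMP4 and 23.9, 12.5 and 15.0 TPM in NT. Every treated library was above every NT library. It rose with TGFB2 against NT by 3.12 on the log2 scale (edgeR adjusted p = 2.04e-05) and with BMP4 against NT by 2.87 (edgeR adjusted p = 0.000243). The interaction of the ligands was -2.45 ± 0.34 (edgeR adjusted p = 0.0249), so both together were below the sum of the log2 effects. That call was lost without 8 of the 12 libraries, one at a time, with adjusted p of 0.0529 to 0.0848. These were BMP4-TGFB2 replicates 1, 2 and 3, TGFB2 replicates 2 and 3, BMP4 replicates 1 and 2, and NT replicate 2.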

How the results depend on the processing

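In BMP4-TGFB2 against BMP4 the falls of Klk14, Klk10, Klk8 and Klk6 kept their direction and side of the threshold in all 14 alternatives run, and 4 to 5 members were called on leaving out single libraries. Over all results of the members, 324 alternative values kept both, 10 gained a call, 10 lost one and 20 changed sign, all 20 uncalled. The replicate block changed no call of a member other than Klk10 and Klk8 in BMP4 against NT. Members called there were 0 in the reported fit and 2 with no filter, DESeq2 or the replicate block, 1 with only the groups compared, 1 without the replicate 1 libraries and 0 to 1 without single libraries. In BMP4-TGFB2 against NT, 5 were called, 7 with no filter, 6 by DESeq2, 3 by limma on log2(TPM + 0.1) and 4 to 6 without single libraries. In the interaction, 0 were called, and 1 without the replicate 1 libraries. The fold change of Klk8 in TGFB2 against NT was -1.53 without the replicate 1 libraries.

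Counts of genes called moved more. TGFB2 against NT gave 3423 genes, 5799 with the replicate block and 2011 to 3629 without single libraries. BMP4-TGFB2 against BMP4 gave 1412, 3476 with the block, 932 with only the groups compared, 889 by limma on log2(TPM + 0.1) and 655 to 1304 without single libraries. BMP4 against NT gave 833, 1446 by DESeq2, 2356 with the block, 554 with only the groups compared, 453 by limma on log2(TPM + 0.1) and 292 to 739 without single libraries. BMP4-TGFB2 against NT gave 4007, 6342 with the block and 2519 to 4195 without single libraries. BMP4-TGFB2 against TGFB2 gave 0, 23 with no filter, 44 by DESeq2, 6 with the block, 1 and 2 by limma on log2(TPM + 1) and log2(TPM + 0.1) and 0 to 1 without single libraries. The interaction gave 24, 173 with no filter, 263 by DESeq2, 280 with the block, 6 without the replicate 1 libraries, 15 and 0 by limma and 0 to 26 without single libraries. The cause of these shifts was not tested.

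Changes of sign were near 0. In BMP4-TGFB2 against TGFB2, Klk14 gave -0.0053 by DESeq2, -0.0080 with only the groups compared and -0.12 without the replicate 1 libraries. Klk8 gave 0.053 and 0.055 by limma on log2(TPM + 1) and log2(TPM + 0.1). Leaving out single libraries gave -0.22 to 0.51 for Klk14, -0.29 to 0.12 for Klk10, -0.86 to 0.0093 for Klk9, -0.43 to 0.29 for Klk8 and -0.60 to 0.085 for Klk6. Klk6 in BMP4 against NT gave -0.075 without the replicate 1 libraries and -0.18 to 0.47 without single libraries. Depth limits Klk9, Klk11 and Klk13 most, at 35 counts or fewer in every library.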
